A study of Homo sapiens with 6 samples.

Results

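Genes that license replication origins and build the replication fork were followed in human leukaemia cell lines after knockdown of CXXC5. The list held 45 genes, chosen by function, and a gene was taken where a feature of the array carried its symbol and no other. This left 43 genes, all of which passed the filter on low values, out of 15330 named genes compared. The features of PRIM2 and RRM1 each list a second symbol, so these 2 genes were not measured here.

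The study used 6 whole-transcript arrays of total RNA from proliferating cells that carried a lentiviral shRNA. In 3 of them the shRNA was directed against CXXC5, also called RINF (shRINF), and in 3 it was a control sequence (shcontrol). Each group held 1 array of K562, 1 of UT7-5.3 and 1 of MV4-11, so that the cell line was the replicate and no line had a second culture. K562 is a chronic myeloid leukaemia line with erythroid traits. UT7-5.3 belongs to the UT-7 family of megakaryoblastic lines, which need a cytokine, and grew in GM-CSF. MV4-11 is an acute leukaemia line of monocytic type. The shRNA sequence, the time between transduction and harvest, and whether cells were cloned are not given in the labels.

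Replication starts in 2 steps that are kept apart in the cell cycle. In G1 the origin recognition complex, with CDC6 and CDT1, loads the MCM helicase onto DNA, and geminin (GMNN) later blocks CDT1. In S phase the kinase CDC7 with DBF4 and the factors MCM10, CDC45 and GINS switch the helicase on, and the polymerases, the sliding clamp PCNA, its RFC loader, RPA, FEN1 and LIG1 copy and join the strands. Many of these genes are transcribed at the G1/S border under control of E2F factors, and as a group they mark dividing cells. A level in a bulk sample cannot separate fewer cells in S phase from less RNA per cell.

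The knockdown and the identity of the lines were read first. CXXC5 was at log2 7.95 in K562 cells, 7.76 in UT7-5.3 and 7.95 in MV4-11 with shRINF, against 8.40, 8.42 and 8.58 with shcontrol. The transcript was thus at 63.3% to 73.2% of its control level, a partial knockdown. Its mean difference was -0.58 ± 0.11 log2 units (SD, n = 3 lines), and the adjusted p by limma, over all 15330 genes with the line as a block, was 0.153. No gene of the array passed the adjusted p threshold of 0.05 in this comparison. The erythroid factor GATA1 lay between 9.81 and 10.45 in K562 and UT7-5.3 and at 5.62 and 5.94 in MV4-11. The receptor FLT3 was at 9.61 and 9.88 in MV4-11 and at 3.50 or less on the other 4 arrays. Of the same myelomonocytic list, MPO and LYZ were also highest in MV4-11, but PTPRC was not. PTPRC was highest in UT7-5.3, at 9.97 with shRINF and 9.66 with shcontrol, against 9.14 and 9.51 in MV4-11. The megakaryocytic integrin ITGA2B was highest in UT7-5.3, at 8.21 with shRINF and 8.79 with shcontrol. The other 3 measured genes of the megakaryocytic list did not mark UT7-5.3. CSF2RA, a GM-CSF receptor subunit, was at 7.85 and 7.95 there and at 8.29 and 8.58 in MV4-11, with shRINF and shcontrol in turn. GP9 and PF4 lay between 5.42 and 5.92 on all 6 arrays. Of the collagen genes, COL1A1 lay between 5.95 and 6.17 and COL1A2 between 5.00 and 5.39 on the 6 arrays. The other fibroblast and epithelial genes of the list included KRT8 and KRT18, which K562 held at 9.55 or more. UT7-5.3 held KRT18 at 9.58 with shRINF and 9.52 with shcontrol, and KRT8 at 7.86 and 7.87. MV4-11 held both at 7.65 or less. EPCAM was at 7.70 with shRINF and 7.71 with shcontrol in K562 and at 3.63 or less on the other 4 arrays.

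Replication genes were mostly higher with shRINF than with shcontrol, by small amounts. In MV4-11, 40 of the 43 genes were higher and 3 lower, each by any amount, with a median difference of 0.17 log2 units. In K562, 38 were higher and 3 lower, with a median of 0.06 that was 0.03 after quantile normalization, cyclic loess or removal of the trend with level and 0.04 after median centring. In UT7-5.3, 28 were higher and 13 lower, with a median of 0.12. Over all genes tested, 49.0% were higher and 47.4% lower in MV4-11, 51.9% and 43.5% in K562, and 42.4% and 56.2% in UT7-5.3. The medians over all genes were 0, 0.01 and -0.06 in that order of lines. In all 3 lines, 23 of the 43 were higher and none lower, where 13.7% of all genes were higher and 15.2% lower. None of the 43 passed limma's adjusted p threshold of 0.05 in either direction, as was true of all genes (0% called). At an unadjusted p under 0.05, 7 were higher and none lower, against 4.28% and 2.12% of all genes. These 7 were GINS2, ORC3, MCM10, RFC5, POLA1, PRIM1 and CDC6. Without MV4-11 the count was 2 instead of 7, and after quantile normalization, cyclic loess or removal of the trend with level it was 1. Without MV4-11, 2 genes, TYMS and UHRF1, were lower in each remaining line. The shares of all genes in these other settings were not counted.

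The level of a gene bears on how these counts read. Differences between shRINF and shcontrol varied with mean level over the whole array, most of all in UT7-5.3, where the lowest of 5 equal level bins had a median of -0.11 and the highest one of 0.13. Replication genes are well expressed, and 28 of the 43 fell in that highest bin. Set beside the 2395 genes whose mean level lay between the quartiles of the 43 (log2 7.90 to 9.06), the lines parted. In MV4-11, 58.5% of those genes were higher and 37.8% lower, with a median of 0.03. In K562, 63.2% were higher and 31.6% lower, also with a median of 0.03. In UT7-5.3, 64.3% were higher and 34.2% lower, with a median of 0.12, which is the median of the replication genes themselves. Differences of 0.2 or more were counted as well. In MV4-11, 16 of the 43 were higher by that much and 1 lower, against 12.9% and 5.18% of genes of like level and 9.89% and 7.48% of all genes. In UT7-5.3, 16 were higher and 5 lower, against 39.1% and 12.6% of genes of like level and 23.0% and 25.4% of all genes. In K562, 1 was higher and none lower, against 2.51% and 0.793% of genes of like level and 3.33% and 2.70% of all genes. Of the genes of like level, 21.3% were higher in all 3 lines and 2.96% lower. Their share at an unadjusted p under 0.05 was not counted, so the count of 7 replication genes at that limma threshold has no background of like level. Without UT7-5.3, 35 of the 43 replication genes were higher in both remaining lines. The share of all genes higher in both was not counted, so this number has no background beside it.

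**Figure D1:**
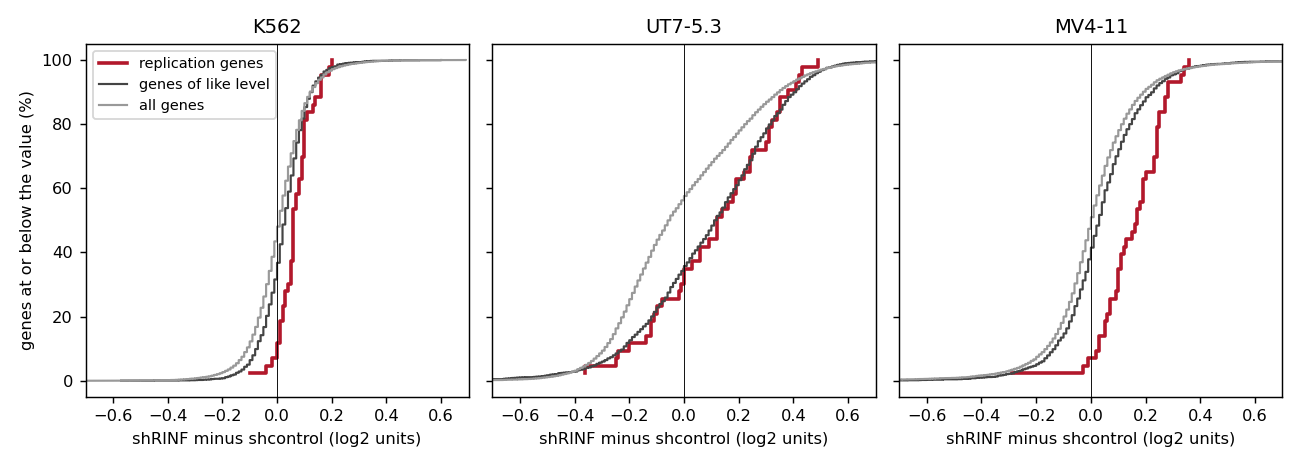
Cumulative share of genes (y axis, %) at or below each difference of shRINF minus shcontrol (x axis, log2 units) in each line, for the 43 replication genes, the 2395 genes of like level and all 15330 genes. The curve of the replication genes lies to the right of both others in MV4-11, slightly to the right in K562, and on that of the genes of like level in UT7-5.3.

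Promoter sequence was available for 39 of the 45 genes from RefSeq (GRCh38.p14), as 52 stretches running from 250 bases before to 50 bases after an annotated start. No entry was matched for MCM4, MCM5, GINS4, POLD3, RPA2 and RPA3. The E2F element was searched as TTTGGCGC, TTTCCCGC, TTTCGCGC and TTTGCCGC on both strands, and overlapping matches were counted as 1 site. These letters stood in 22 of the 52 promoters (42.3%), against 3.31% of all 35116 promoters of the same length in the table. The CCAAT box, searched as CCAAT on both strands, stood in 55.8% against 34.6%, and TATAAA in 5.77% against 11.5%. The median promoter of the set held 31 CpG dinucleotides, against 14 over the table. CXXC5 has a zinc finger of a type that binds CpG-rich DNA, and these data do not measure its binding. The genes were chosen by function, so the shares describe the set and no test was made.

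Stretches of 165 bases that end 10 bases after the start are shown for 3 pairs of genes, with the E2F letters in capitals. CDT1 (chr16:88803634-88803798, plus strand) and GMNN (chr6:24775258-24775422, plus strand) are the loader and its inhibitor. MCM6 (chr2:135876434-135876598, minus strand) and GINS2 (chr16:85688945-85689109, minus strand) belong to the active helicase. POLE (chr12:132687333-132687497, minus strand) and POLE2 (chr14:49688205-49688369, minus strand) encode the catalytic and an accessory subunit of polymerase epsilon.
CDT1: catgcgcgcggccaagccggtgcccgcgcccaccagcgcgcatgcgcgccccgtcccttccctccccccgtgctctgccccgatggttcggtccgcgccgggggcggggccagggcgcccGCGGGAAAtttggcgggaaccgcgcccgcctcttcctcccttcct
GMNN: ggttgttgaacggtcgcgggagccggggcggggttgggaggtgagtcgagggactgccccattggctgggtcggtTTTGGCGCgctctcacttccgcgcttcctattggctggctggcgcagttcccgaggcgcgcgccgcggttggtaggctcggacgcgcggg
MCM6: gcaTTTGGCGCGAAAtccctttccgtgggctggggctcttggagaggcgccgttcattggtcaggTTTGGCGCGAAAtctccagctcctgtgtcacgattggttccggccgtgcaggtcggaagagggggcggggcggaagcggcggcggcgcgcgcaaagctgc
GINS2: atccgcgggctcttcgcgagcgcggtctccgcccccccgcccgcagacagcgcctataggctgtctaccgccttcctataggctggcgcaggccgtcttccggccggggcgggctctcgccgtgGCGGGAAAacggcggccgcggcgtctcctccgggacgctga
POLE: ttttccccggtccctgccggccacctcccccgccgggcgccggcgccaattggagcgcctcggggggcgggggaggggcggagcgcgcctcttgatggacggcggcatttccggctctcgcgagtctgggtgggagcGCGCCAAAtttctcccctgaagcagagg
POLE2: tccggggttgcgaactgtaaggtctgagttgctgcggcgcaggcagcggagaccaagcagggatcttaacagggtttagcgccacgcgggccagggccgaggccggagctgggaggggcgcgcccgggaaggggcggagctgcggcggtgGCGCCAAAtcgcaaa

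In MCM6 the capitals mark a pair of sites, each made of overlapping matches on the 2 strands, from -152 to -141 and from -90 to -79 counted from the start. The single site lies at -35 to -28 in CDT1, -80 to -73 in GMNN, -31 to -24 in GINS2, -18 to -11 in POLE and -5 to 3 in POLE2. Genes with and without the letters had like median differences. The 21 measured genes with the letters in a listed promoter had a median difference over the lines of 0.11, and 9 of them were higher in all 3 lines. The 16 genes whose listed promoters lacked them had a median of 0.12, with 12 higher in all 3 lines, and the 6 with no listed promoter a median of 0.09.

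Origin recognition genes encode the complex that marks origins and recruits the loaders. All 5 members on the list were higher with shRINF in all 3 lines. ORC4, a subunit of the same complex that belongs to the related list of fork genes, was not. Its differences were -0.02 in K562, 0.47 in UT7-5.3 and 0.06 in MV4-11. ORC3 was at log2 9.10 in K562 cells, 9.20 in UT7-5.3 and 8.30 in MV4-11 with shRINF, against 9.04, 8.78 and 8.05 with shcontrol. Its mean difference was 0.24 ± 0.18 (SD, n = 3), with limma's adjusted p at 0.768. The difference was 0.42 in UT7-5.3 and 0.06 in K562. ORC5 had differences of 0.04 in K562 cells, 0.34 in UT7-5.3 and 0.05 in MV4-11, so that its mean of 0.14 rested on UT7-5.3. ORC1 and ORC2 were more even, at 0.14 ± 0.06 and 0.13 ± 0.07 (SD, n = 3). ORC6 had the smallest mean, 0.08.

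The licensing factors CDC6, CDT1 and GMNN parted in UT7-5.3. CDC6, the ATPase that joins the origin complex to load MCM, was at 9.49 in K562 cells, 8.46 in UT7-5.3 and 8.75 in MV4-11 with shRINF, against 9.43, 8.22 and 8.47 with shcontrol. GMNN was at 8.91, 8.53 and 8.56 with shRINF in the same lines, against 8.91, 8.21 and 8.29 with shcontrol. CDT1 was at 8.02, 7.47 and 7.49 with shRINF, against 7.99, 7.71 and 7.25 with shcontrol. In MV4-11 all 3 factors were higher, by 0.24 to 0.28. In UT7-5.3 GMNN was higher by 0.32 and CDC6 by 0.24, whereas CDT1 was lower, at -0.24. Differences of 0.2 or more were common in that line, with 39.1% of genes of like level higher and 12.6% lower by that much. Over all genes these shares were 23.0% and 25.4%. In K562 none of the 3 differed by more than 0.06. CDT1 thus had a mean difference of 0.01 ± 0.24, CDC6 of 0.19 ± 0.12 and GMNN of 0.20 ± 0.17 (SD, n = 3).

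The 6 subunits of the MCM helicase, which works as a ring of one copy of each, did not move as a block. All 6 were higher in K562, by 0.06 to 0.19, with MCM5 at 9.32 with shRINF against 9.13 with shcontrol. In UT7-5.3 MCM3, MCM4 and MCM6 were higher, by 0.14, 0.12 and 0.31, while MCM2, MCM5 and MCM7 were lower, at -0.14, -0.10 and -0.12. In MV4-11 MCM2 was higher by 0.27, MCM4 and MCM7 by 0.11 each and MCM5 by 0.09, and MCM3 and MCM6 had differences of -0.01 and -0.03. Only MCM4 of the 6 was higher in all 3 lines, at 9.92 in K562 cells, 9.67 in UT7-5.3 and 9.89 in MV4-11 with shRINF, against 9.83, 9.55 and 9.78 with shcontrol. Its mean difference of 0.11 had the smallest spread of the 43 genes, an SD of 0.02 (n = 3).

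Of the genes that switch the helicase on, all 8 were higher in MV4-11, by 0.03 to 0.36, and 5 of the 8 were higher in all 3 lines. GINS2, a subunit of the GINS ring that binds CDC45 and MCM, had the largest mean difference of the 43, at 0.27 ± 0.13 (SD, n = 3; limma adjusted p = 0.763). It was at 8.58 in K562 cells, 7.09 in UT7-5.3 and 7.49 in MV4-11 with shRINF, against 8.42, 6.68 and 7.24 with shcontrol. Every line was higher with shRINF, while the values of the groups overlapped because the lines lay far apart. Its partner subunit GINS1 had differences of 0.10, 0.18 and 0.24 in K562 cells, UT7-5.3 and MV4-11. GINS3 and GINS4 were higher in MV4-11, by 0.36 and 0.23, with GINS3 at -0.10 in K562 and GINS4 at -0.08 in UT7-5.3. MCM10, which helps the helicase to open DNA, was at 9.57 in K562 cells, 9.45 in UT7-5.3 and 9.16 in MV4-11 with shRINF, against 9.55, 9.10 and 8.83 with shcontrol. Its differences in UT7-5.3 and MV4-11, 0.35 and 0.33, thus had no counterpart in K562, at 0.02. The kinase gene CDC7 and its activator gene DBF4 had mean differences of 0.11 and 0.13, and CDC45 of 0.10.

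**Figure D2:**
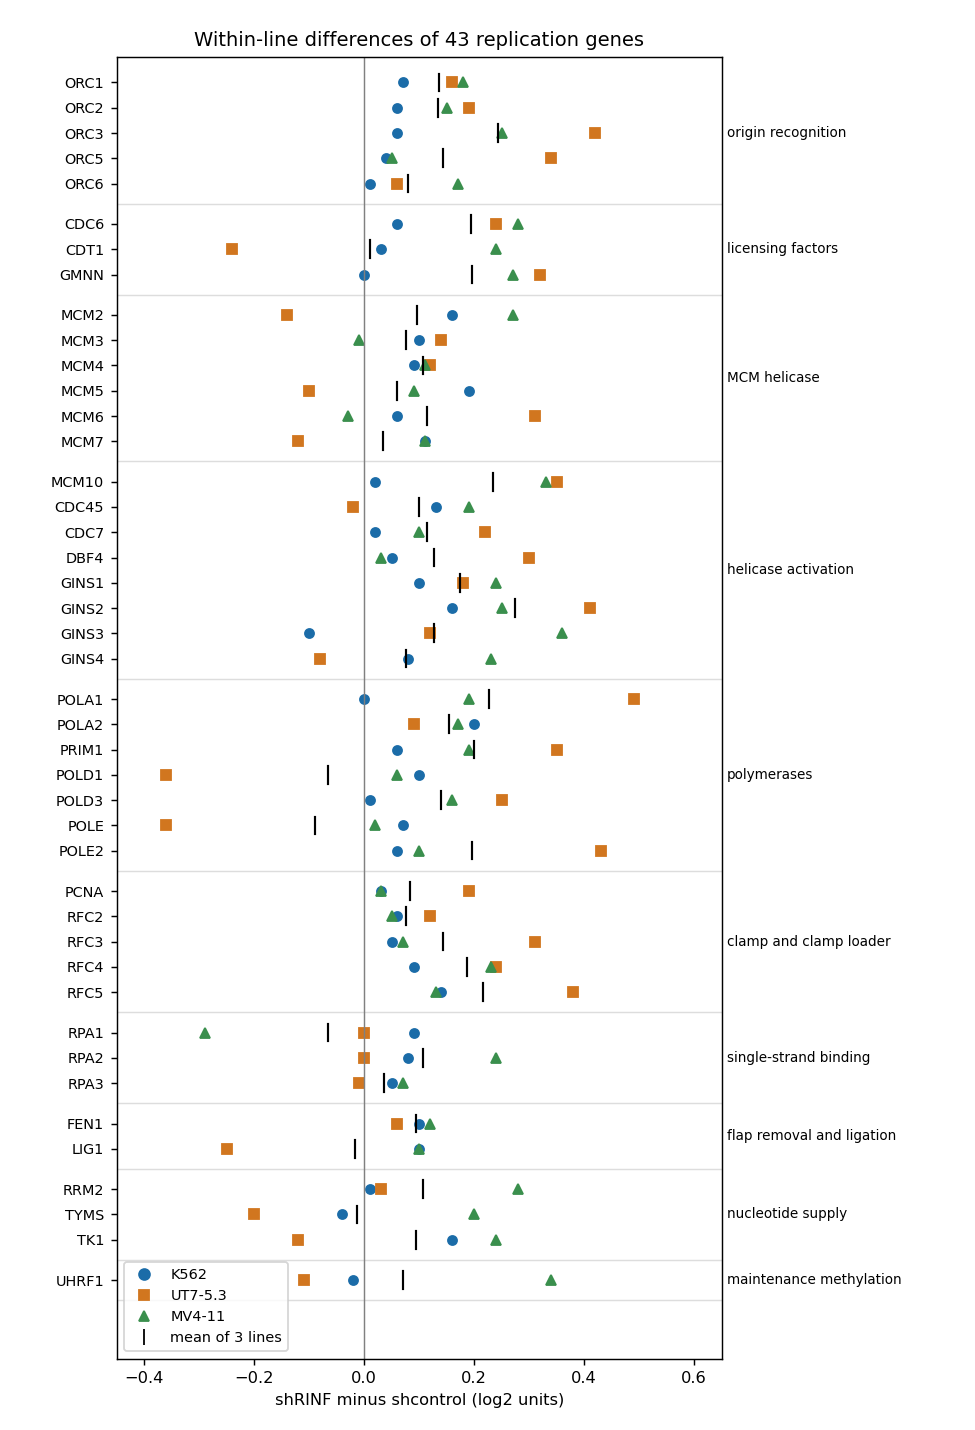
Difference of shRINF minus shcontrol (x axis, log2 units) for each of the 43 genes, grouped by role, with 1 point per line and a bar at the mean of the 3 lines. Points of MV4-11 lie right of 0 for 40 genes, those of UT7-5.3 spread from -0.36 to 0.49, and those of K562 stay between -0.10 and 0.20.

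The polymerase genes held the widest spread, and it came from UT7-5.3. POLA1, the catalytic subunit of the polymerase that primes each fragment, was at 9.02 in K562 cells, 8.23 in UT7-5.3 and 8.68 in MV4-11 with shRINF, against 9.02, 7.74 and 8.49 with shcontrol. Its 0.49 in UT7-5.3 was the largest difference of any replication gene in any line, and its difference in K562 was 0. PRIM1, the primase subunit that makes the RNA primer, was higher by 0.06, 0.35 and 0.19 in K562 cells, UT7-5.3 and MV4-11. POLA2 was higher by 0.20, 0.09 and 0.17, and was the single gene to reach 0.2 in K562. The 2 enzymes that extend the primers went the other way in UT7-5.3. POLE, the leading-strand polymerase, was at 8.79 in K562 cells, 7.05 in UT7-5.3 and 8.41 in MV4-11 with shRINF, against 8.72, 7.41 and 8.39 with shcontrol. POLD1, the catalytic subunit of the lagging-strand polymerase, was at 8.03, 7.45 and 7.28 with shRINF, against 7.93, 7.81 and 7.22 with shcontrol. Both were lower in UT7-5.3, at -0.36 each, and differed by 0.10 or less in the other lines. In UT7-5.3, 12.6% of genes of like level and 25.4% of all genes were lower by 0.2 or more, so such a difference was common there. Their accessory subunits were mixed. POLE2, of polymerase epsilon, was at 8.31 in K562 cells, 7.92 in UT7-5.3 and 7.91 in MV4-11 with shRINF, against 8.25, 7.49 and 7.81 with shcontrol. POLD3 was higher by 0.01, 0.25 and 0.16 in K562 cells, UT7-5.3 and MV4-11. The other accessory subunits, which belong to the related list of fork genes, had differences in UT7-5.3 of -0.12 for POLD2, -0.25 for POLD4, -0.04 for POLE4 and 0.06 for POLE3. POLE2, POLD3 and POLE3 thus had the opposite sign to POLE and POLD1 there, and POLD2, POLD4 and POLE4 the same sign, each from 1 array per condition.

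**Figure D3:**
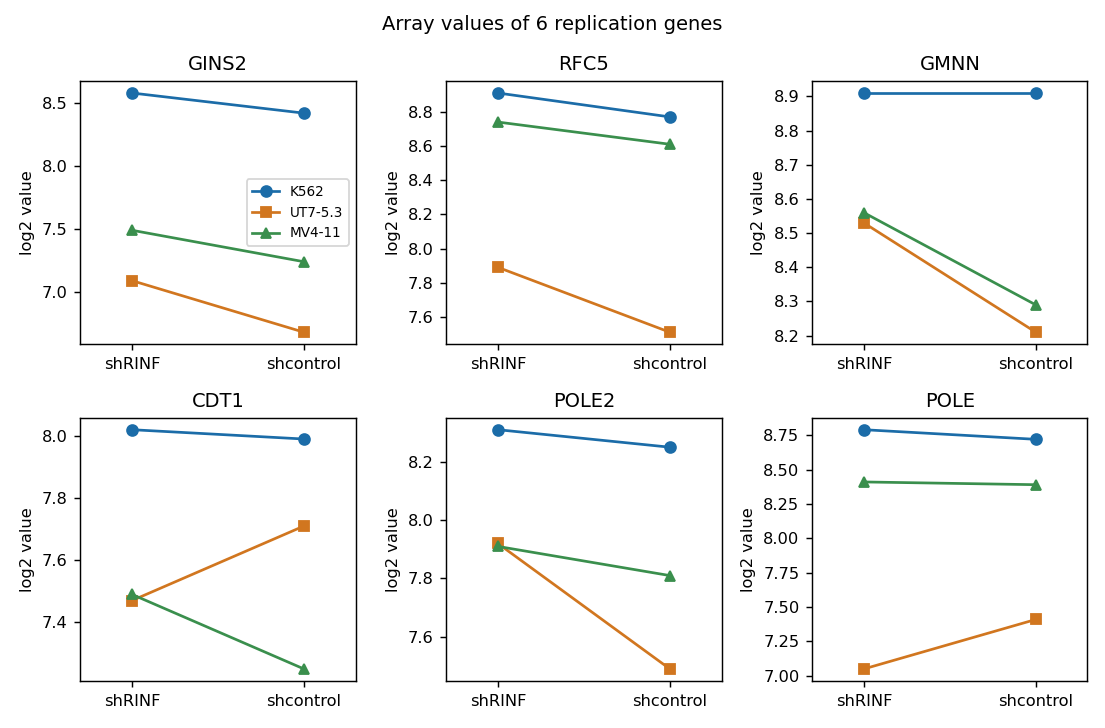
Log2 values (y axis) with shRINF and with shcontrol for 6 genes, with 1 line per cell line joining its 2 arrays. GINS2, RFC5 and POLE2 are higher with shRINF in every cell line and GMNN is so in UT7-5.3 and MV4-11, whereas CDT1 and POLE are lower with shRINF in UT7-5.3.

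The clamp and its loader were higher with shRINF in every line, as 5 of 5 genes. RFC5 was at 8.91 in K562 cells, 7.89 in UT7-5.3 and 8.74 in MV4-11 with shRINF, against 8.77, 7.51 and 8.61 with shcontrol, a mean difference of 0.22 ± 0.14 (SD, n = 3). RFC4 followed at 0.19 ± 0.08, RFC3 at 0.14 ± 0.14 and RFC2 at 0.08 ± 0.04 (SD, n = 3). PCNA, the ring that holds the polymerases on DNA, was at 9.56, 9.40 and 9.47 with shRINF, against 9.53, 9.21 and 9.44 with shcontrol. Its difference reached 0.19 in UT7-5.3 and was 0.03 in each other line. The median of the 5 genes was 0.24 in UT7-5.3, against 0.06 in K562 and 0.07 in MV4-11. Genes of like level were also highest in UT7-5.3, with a median of 0.12 there and 0.03 in each other line.

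RPA, the heterotrimer that coats single strands, and the enzymes of flap removal and ligation had differences of both signs. RPA1 was at 9.31 in K562 cells, 9.30 in UT7-5.3 and 8.76 in MV4-11 with shRINF, against 9.22, 9.30 and 9.05 with shcontrol. At -0.29 it was the only gene of the 43 lower by 0.2 or more in MV4-11, where RPA2 was higher by 0.24. RPA3 lay at 5.23 to 5.86 on the 6 arrays, close to the filter on low values at log2 5, and differed by 0.07 at most. FEN1, which trims the flaps of lagging-strand fragments, was higher by 0.10, 0.06 and 0.12 in K562 cells, UT7-5.3 and MV4-11. LIG1, which seals the nicks, was higher by 0.10 in K562 and in MV4-11 and lower in UT7-5.3, at -0.25.

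Genes of deoxynucleotide supply were higher in MV4-11, by 0.20 or more, and mixed in UT7-5.3. RRM2, the small subunit of ribonucleotide reductase, was at 9.46 in K562 cells, 8.84 in UT7-5.3 and 8.85 in MV4-11 with shRINF, against 9.45, 8.81 and 8.57 with shcontrol. Thymidine kinase TK1 was at 9.29, 8.34 and 7.88 with shRINF, against 9.13, 8.46 and 7.64 with shcontrol. Thymidylate synthase TYMS was at 10.43, 9.75 and 10.05 with shRINF, against 10.47, 9.95 and 9.85 with shcontrol. In MV4-11 the 3 differences were 0.28, 0.24 and 0.20, and in UT7-5.3 they were 0.03, -0.12 and -0.20. UHRF1, which reads hemimethylated DNA behind the fork and brings in the maintenance methyltransferase, was higher in MV4-11 only. It was at 8.75 in K562 cells, 8.44 in UT7-5.3 and 10.08 in MV4-11 with shRINF, against 8.77, 8.55 and 9.74 with shcontrol, and its 0.34 in MV4-11 was second to GINS3 there.

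Related lists of genes gave the setting, and no gene of any of them passed limma's adjusted p threshold. Of 32 other fork and licensing genes, 25 were higher in MV4-11, 17 in K562 and 18 in UT7-5.3, with medians of 0.11, 0.01 and 0.10. In all 3 lines 5 of the 32 were higher and 1 lower. MCM8, DSCC1, MTBP and TOPBP1 had the largest mean differences, 0.21 each. In K562 the first 3 had differences of -0.01 to 0.01, and TOPBP1, which helps to load CDC45, one of 0.06. The 21 G1/S regulators had medians of 0.10 in MV4-11, 0.02 in K562 and 0.17 in UT7-5.3, and 7 were higher in all 3 lines. SKP2, which targets the CDK inhibitor p27 for destruction, was higher by 0.09 in K562 cells, 0.41 in UT7-5.3 and 0.34 in MV4-11, and E2F6 by 0.10, 0.31 and 0.25. E2F8, a repressor of E2F targets, was higher by 0.49 in MV4-11, with -0.04 in K562 and 0.17 in UT7-5.3. The E2F1 transcript differed by 0.12 at most.

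All 17 mitotic genes measured were higher in MV4-11, by 0.12 to 0.38 with a median of 0.23, so that the replication genes were not alone there. Of the 17, 10 were higher in K562, with a median of 0.02, and 13 in UT7-5.3, with a median of 0.24. The kinesin gene CENPE had differences of 0.19 in K562 cells, 0.84 in UT7-5.3 and 0.33 in MV4-11. TTK and AURKA, kinases of the spindle, had mean differences of 0.29 ± 0.17 and 0.26 ± 0.15 (SD, n = 3). The 10 checkpoint and repair genes were all higher in MV4-11, with a median of 0.14, and 3 of them were higher in K562, with a median of -0.03. RAD17, BLM and BRCA1 had mean differences of 0.23, 0.22 and 0.19. Of 19 other genes of nucleotide supply, 13 were higher in MV4-11 with a median of 0.04. PAICS and GART, of purine synthesis, had mean differences of 0.12 and 0.11, and SAMHD1, which degrades deoxynucleotides, was lower in MV4-11, at -0.67. Markers of the myelomonocytic line moved in MV4-11 as well, with LYZ at 11.49 with shRINF against 12.33 with shcontrol, FLT3 at 9.61 against 9.88 and MPO at 9.75 against 8.88. Their part in the result was not tested.

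**Figure D4:**
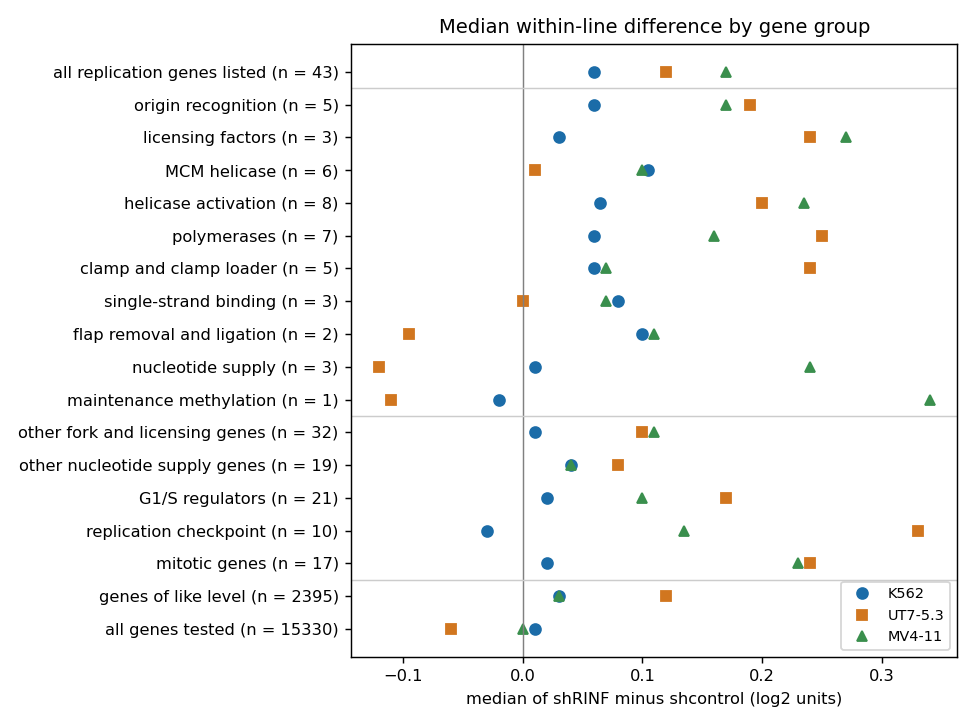
Median difference of shRINF minus shcontrol (x axis, log2 units) by gene group, with 1 point per line and the number of genes in brackets. The 43 replication genes have medians of 0.06 in K562 cells, 0.12 in UT7-5.3 and 0.17 in MV4-11, against 0.03, 0.12 and 0.03 for genes of like level.

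The lines differed in these genes far more than the shRNA groups did. The median gap between the highest and lowest line, each the mean of its 2 arrays, was 0.77 log2 units over the 43 genes. Over the genes of like level it was 0.64, and over all genes 0.48. Among the 43 the gap ran from 0.24 for PCNA to 2.38 for CDC45. K562 was the highest line. In 31 of the 43 genes both K562 arrays lay above the 4 arrays of the other lines, where 22.4% of all genes did so, and in none did they lie below, where 17.7% did. UT7-5.3 was on top in 2 genes (17.6% of all genes) and MV4-11 in 2 (22.2% of all genes). Both UT7-5.3 arrays were lowest in 18 genes (14.4% of all genes) and both MV4-11 arrays in 12 (27.0% of all genes).

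A gene was called between lines where limma, fitted with line and shRNA group, gave an adjusted p under 0.05 and the lines differed at least 2-fold. By this rule 9 of the 43 genes were lower and none higher in UT7-5.3 than in K562. Over all genes 4.0% were lower and 5.84% higher. In MV4-11 against K562, 9 were lower and 1 was higher, against 7.05% and 8.06% of all genes. In MV4-11 against UT7-5.3, 4 were higher and none lower, against 6.51% and 7.07%. With no minimum fold, 30 of 43 were lower and 1 higher in UT7-5.3 than in K562, against 21.2% and 20.4% of all genes. In MV4-11 against K562, 30 were lower and 3 higher, against 27.5% and 23.0%, and in MV4-11 against UT7-5.3, 10 were lower and 11 higher, against 25.8% and 22.6%. The 2 arrays of a line came from different shRNA groups, so these p-values do not cover the spread between cultures of 1 kind.

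CDC45, which joins GINS and MCM in the active helicase, differed most. It was at 7.52 and 7.54 in UT7-5.3 and at 7.77 and 7.58 in MV4-11, with shRINF and shcontrol in turn, against 9.98 and 9.85 in K562. The difference from K562 was -2.24 ± 0.11 in MV4-11 (SE; limma adjusted p = 1.02e-09). GINS2 differed from K562 by -1.14 in MV4-11 and by -1.61 in UT7-5.3 (log2), and GINS4 by 0.07 and -0.77. PRIM1, POLA2, POLA1 and POLE were lowest in UT7-5.3. PRIM1 was at 8.08 and 7.73 there, with shRINF and shcontrol, and at 9.31 and 9.12 in MV4-11, against 10.09 and 10.03 in K562. Compared with UT7-5.3, MV4-11 was higher by 1.31 ± 0.11 in PRIM1 (SE; limma adjusted p = 4.02e-07), by 1.17 ± 0.12 in POLE (3.21e-06) and by 1.05 ± 0.11 in POLA2 (1.98e-06).

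ORC1, RPA2 and TK1 were lowest in MV4-11. TK1 was lower there than in K562 by 1.45 on the log2 scale, with an SE of 0.12 and a limma adjusted p of 1.95e-07, and RPA2 by 1.22. UHRF1 alone had its highest level in MV4-11 by more than 2-fold, at 10.08 and 9.74, against 8.75 and 8.77 in K562 and 8.44 and 8.55 in UT7-5.3. POLD3 was the other gene with both MV4-11 arrays on top, and ORC2 and MCM3 had both UT7-5.3 arrays on top. PCNA, MCM4 and LIG1 differed between no pair of lines at limma's adjusted p of 0.05. The level of one gene was not set against that of another, since array features differ in their response.

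**Figure D5:**
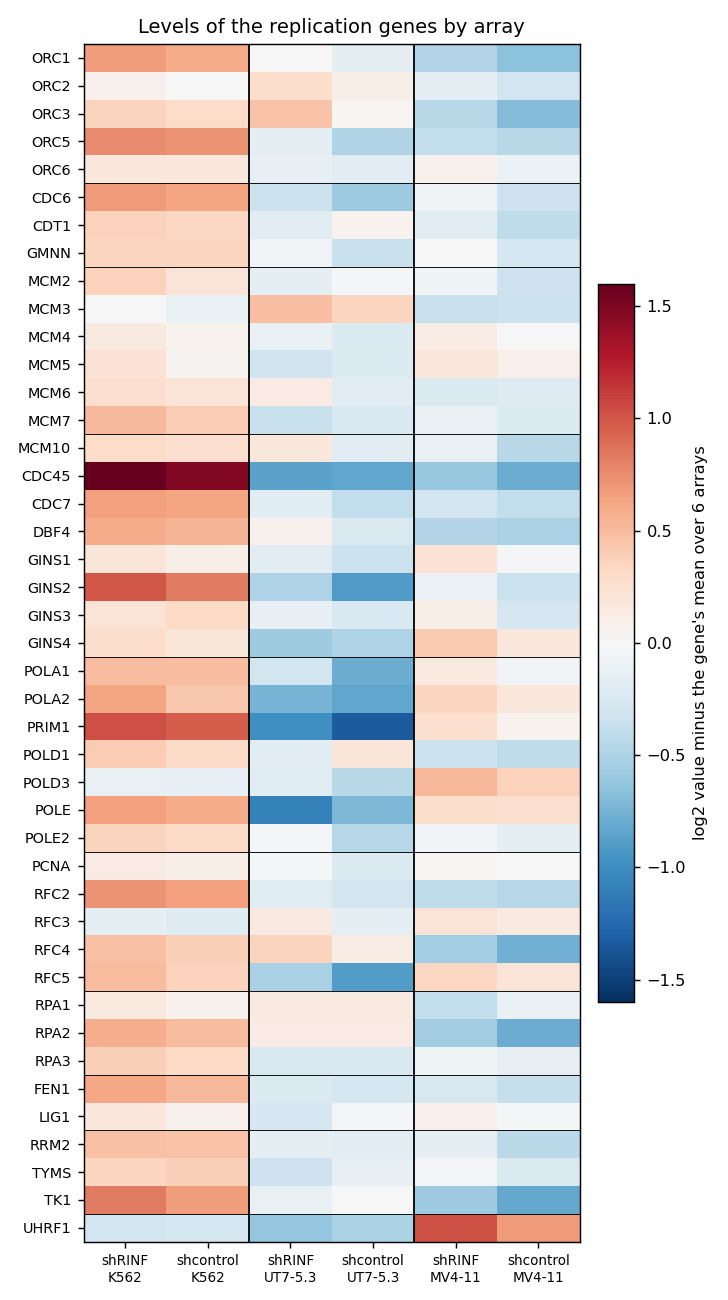
Log2 value of each of the 43 genes on each of the 6 arrays (columns, shRINF left of shcontrol in each line) minus the mean of that gene over the 6 arrays (colour scale, log2 units), with rules between roles. The 2 K562 columns are red for most genes, CDC45, PRIM1 and GINS2 most of all, and UHRF1 is red in MV4-11 only.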

How the data were processed

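Total RNA of 3 lines was measured on 6 arrays, with 1 array per line and shRNA. The authors deposited log2 expression values for each feature. Per the submitters' processing notes, RMA and Affymetrix Expression Console were used, with no version given in the sources used here. The log base was taken as 2 from the method and the range of values, 1.63 to 13.89. RMA gives the probes of all arrays one distribution before they are summarised by feature, which hides any shift common to most genes. The deposited feature values were close but not equal in distribution, with array medians of 4.64 to 4.71. The files used hold no detection calls, and precision is limited by the array number.

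Of 67528 features, 23781 had 1 gene symbol in the platform's annotation. Features that reached log2 5 on fewer than 2 arrays were dropped, and the brightest remaining feature stood for its gene, which left 15330 genes. Differences were tested by limma 3.58.1 in R 4.3.3, blocked on cell line, with Benjamini-Hochberg adjustment over all genes. The lines pair the arrays by their labels, and correlations were 0.993 to 0.997 within a line and 0.930 to 0.959 between lines. The fit had 2 residual degrees of freedom. Procedures were tested on simulated data. Alternatives covered the filter, feature, normalization, variance model, block and each line left out. Among the alternatives and the counts followed under them, 1 alternative and 3 counts were added after the data were examined. The plan also did not name the genes of like level, the level bins, the counts at 0.2 or the promoter split. Nor did it name the counts of highest and lowest lines or the counts between lines with no minimum fold.

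Every measured gene of the list is accounted for. The naming rule picked 10 genes of 1 sign whose smallest difference is largest, 2 per role by mean and 5 at each extreme per line. It also picked the 8 widest between lines and 3 per related list. Array values were planned for all of these, and some are given only as differences or means. RPA3, PCNA, COL1A1, COL1A2, KRT8, KRT18, E2F1, LYZ, MPO, GATA1, FLT3, ITGA2B, CSF2RA, GP9, PF4, TOPBP1, POLD2, POLD4, POLE3, POLE4 and some other values outside that rule were chosen with their values known. ORC4, PTPRC and EPCAM were added in the same way. The genes and lists were chosen with earlier results of these data known.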

Additional observations from a re-analysis of the deposited data

Results flagged for a closer look

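CDT1 and TYMS had differences of shRINF minus shcontrol that were at least 0.2 log2 units in size and of opposite sign in a pair of lines. CDT1 was at -0.24 in UT7-5.3 and at 0.24 in MV4-11. TYMS was at -0.20 in UT7-5.3 and at 0.20 in MV4-11. Each value rests on 1 array per condition. The difference between the lines was not tested, since no line had a second pair of arrays. Only the replication genes were searched by this rule, and the share of all genes that meet it was not counted. In UT7-5.3, 23.0% of all genes were higher by 0.2 or more and 25.4% lower by that much. In MV4-11 these shares were 9.89% and 7.48%. The flag thus has no background beside it.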

How the results depend on the processing

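No replication gene passed limma's adjusted p threshold of 0.05 for shRINF against shcontrol under any of the 13 alternatives, with or without the cell line as a block (0 with no replicate block), and the lowest adjusted p of the 34 named genes was 0.670. The 7 genes at an unadjusted p under 0.05 became 4 with the filter at log2 7, which keeps 41 of the 43, 1 after quantile normalization, cyclic loess or removal of the trend with level and gene span, 2 without MV4-11 and 0 with no replicate block. The cause was not tested. The median difference across lines stayed between 0.06 and 0.13. With the trend removed, a setting chosen after seeing the data that takes out what genes of like level share, the UT7-5.3 median of 0.12 became 0.062. The K562 median of 0.06 became 0.032 to 0.035 with it, quantile normalization or cyclic loess, and 0.04 with median centring. The 23 genes higher in every line were 16 after quantile normalization, cyclic loess or that removal, and 25 to 35 with 1 line left out, where 2 lines remain. Those lower in every line were then 0 to 2. The shares of all genes were not counted under the alternatives, so these counts have no background beside them. Of the named genes, 8 changed sign somewhere. CDT1 was at -0.0189 after quantile normalization, -0.0144 after cyclic loess and -0.0175 with the trend removed, where MCM5 was at -0.00565. With 1 line left out, CDT1 ranged from -0.105 to 0.135, MCM5 from -0.005 to 0.14, LIG1 from -0.075 to 0.10, TYMS from -0.12 to 0.08, POLD1 from -0.15 to 0.08, POLE from -0.17 to 0.045, RPA1 from -0.145 to 0.045 and UHRF1 from -0.065 to 0.16. Counts between lines stayed within 1.5 times. Low signals such as RPA3 limit what can be read.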

Other observations

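In MV4-11 the transcripts of a pair of enzymes that set deoxynucleotide pools went opposite to the replication genes. SAMHD1 was at log2 9.60 with shRINF against 10.27 with shcontrol, and RRM2B, the p53-inducible small subunit of ribonucleotide reductase, at 8.05 against 8.48. RRM2, the S-phase subunit, was higher there by 0.28. In UT7-5.3 SAMHD1 and RRM2B were higher, by 0.27 and 0.25, and in K562 they had differences of -0.14 and 0.04. In UT7-5.3 CAD, which starts pyrimidine synthesis, was at 7.71 with shRINF against 8.34 with shcontrol, a difference of -0.63, against 0.25 in MV4-11 and 0.05 in K562. RRM2B and CAD were named after their values were seen, and each value rests on 1 array per condition.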
